A study of Sus scrofa with 4 samples.

Results

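The Diannan Small Ear and Landrace libraries of pig back muscle are set here against the Tibetan and Yorkshire libraries, miRNA by miRNA. The sets were defined from these same read counts, in which the breeds fell together in this way, and they are no factor of the study's design. Every difference between the sets is therefore given as a description, without a test. The members are the miRNAs with at least 10 reads in 2 or more libraries, 198 of the 271 listed.

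Small RNA of longissimus dorsi, a long back muscle, was sequenced with 1 library per breed. Diannan Small Ear is an indigenous Chinese breed and Landrace an introduced breed, and they form the first set. Tibetan is an indigenous Chinese breed and Yorkshire an introduced breed, and they form the second set. Each set thus holds 1 breed of either type. All 4 libraries share the tissue, the freezing, the Trizol extraction and the library kit, per the labels. The labels name no treatment, age, sex or batch and do not say whether a library held 1 animal or a pool. The sets and any unrecorded batch cannot be told apart.

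A miRNA is cut from a hairpin precursor, and either arm of the hairpin, named 5p or 3p, can yield a mature strand. Precursors that lie close together in the genome are often transcribed as 1 cluster, so that their levels are set in part together. Mature miRNAs with the same seed, the bases near the 5′ end that pair with targets, form a family with overlapping targets. In skeletal muscle the best known are miR-1, miR-206 and miR-133a, which act in the proliferation and differentiation of myoblasts.

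Reads totalled 4500803 in Diannan Small Ear and 2507082 in Landrace, against 3592704 in Tibetan and 5346460 in Yorkshire. Without miR-1 and miR-10b the totals were 1704691 and 1345479, against 577466 and 383836, so most miRNAs were counted from fewer reads in the second set. Levels below are scaled CPM, reads per 1000000 after TMM scaling, which sets the libraries level over the bulk of the miRNAs. A dominant miRNA can then exceed 1000000. A set difference is the mean log2 scaled CPM of Diannan Small Ear and Landrace minus that of Tibetan and Yorkshire, with 2 reads added. A member is called separated where all 4 ratios across the sets, with the same 2 reads added, were at least 2-fold in 1 direction.

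Of the 73 miRNAs outside the rule none had more than 91 reads in a library, and together they held 234 reads in Diannan Small Ear and 343 in Landrace, against 306 in Tibetan and 149 in Yorkshire. Just inside the threshold, miR-504 had 10 and 9 reads in Diannan Small Ear and Landrace, against 19 and 10 in Tibetan and Yorkshire. Just outside, miR-382 had 12 and 9 reads, against 9 and 1. Of the members, 138 had at least 10 reads in all 4 libraries. A further 19 passed only through Diannan Small Ear and Landrace and 8 only through Tibetan and Yorkshire. Of these, 12 and 8 were separated towards the set that admitted them, as the rule itself favours.

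Most members divided between the sets, and 153 of 198 did not overlap between them. In this count 71 members (35.9%) were higher in both Diannan Small Ear and Landrace and 82 (41.4%) were lower. Separated at least 2-fold were 44 higher (22.2%) and 53 lower (26.8%), 97 members in all or 49.0%. The higher ones include miR-671-3p, miR-424-3p and miR-184, whose smallest ratio drops below 2-fold if counts under 3 are set to the 3 reads that a count of 0 allows, which leaves 41 higher. The entries miR-339 and miR-339-5p, both among the lower ones, may share part of their reads. Their counts were unequal, at 40 and 28 against 398 and 169, and at 84 and 66 against 299 and 148. Among the 138 members with 10 reads in every library the share separated was 50.7%, with 28 higher and 42 lower. At 4-fold, 25 were higher and 31 lower, and at 16-fold 5 and 9. The median size of the set difference was 1.47 on the log2 scale. Diannan Small Ear and Landrace differed from each other by a median size of 0.32, and Tibetan and Yorkshire by 0.50. In 140 members the set difference was larger than both.

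The balance of the directions rests on the scaling. With plain library totals, of which miR-1 takes most in Tibetan and Yorkshire, 65 members were separated higher (32.8%) and 13 lower (6.57%), and the set differences moved up by 1.49. All 44 of the higher calls and 13 of the 53 lower calls were kept. Upper-quartile scaling gave 59 higher and 45 lower.

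The muscle miRNAs divided among themselves. miR-1, which promotes myoblast differentiation, measured 1943 scaled CPM in Diannan Small Ear and 1618 in Landrace, against 846404 in Tibetan and 2645918 in Yorkshire. It ranked 20 and 22 among the listed miRNAs in the first set and 1 in both libraries of the second. miR-206, the skeletal muscle relative of miR-1 with the same seed, measured 448.0 and 559.5 in Diannan Small Ear and Landrace, against 34901 and 80481 in Tibetan and Yorkshire. The set differences were -9.72 for miR-1 and -6.72 for miR-206, and neither sign depended on the scaling (-8.19 and -5.19 with library totals).

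miR-133a-3p, from the same transcripts as miR-1, ranked 3 in all 4 libraries. It measured 41005 scaled CPM in Diannan Small Ear and 30410 in Landrace, against 29159 in Tibetan and 32020 in Yorkshire, and the sets overlapped. miR-133b, the neighbour of miR-206, measured 630.5 and 591.3, against 492.1 and 864.3, and overlapped as well. miR-499-5p, from a slow myosin gene, measured 40.2 and 82.8 in Diannan Small Ear and Landrace, against 367.2 and 581.2 in Tibetan and Yorkshire. Its 3p arm had 0 and 0 reads in Diannan Small Ear and Landrace, against 45 and 64 in Tibetan and Yorkshire. miR-208b, from another slow myosin gene, ran the other way without reaching the threshold, at 87.7 and 196.7, against 48.6 and 76.4.

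All 4 libraries thus held the miRNAs that mark striated muscle, apart from miR-499-3p at 0 in the first set, at unequal levels. Summed over the 9 listed muscle miRNAs they measured 133522 and 98346 scaled CPM in Diannan Small Ear and Landrace, against 917812 and 2766230 in Tibetan and Yorkshire, with 1 of 9 separated higher and 5 lower (22.2% and 26.8% over all members). Of the lower ones, miR-499-3p passed the rule only through the second set, where it was higher. miR-1 made up most of the sums in Tibetan and Yorkshire. Without it the sums overlapped, at 131579 and 96728 in Diannan Small Ear and Landrace, against 71408 and 120312 in Tibetan and Yorkshire. The higher one was miR-486, a muscle and red cell miRNA, at 89316 and 64831, against 5810.0 and 5700.0. The other erythroid miRNAs did not share that direction. miR-144 measured 3.70 and 6.36, against 135.9 and 43.3, and miR-451 overlapped at 64.3 and 111.5, against 233.6 and 91.9. In bulk tissue, fewer cells of a type and less of a miRNA per cell cannot be told apart.

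The other marker lists were each led by 1 miRNA. The 5 white blood cell miRNAs summed to 195.3 and 170.9 scaled CPM in Diannan Small Ear and Landrace, against 319.5 and 236.1 in Tibetan and Yorkshire. Of these, 1 of 5 was separated, miR-142-3p, which was lower (26.8% over all members). The endothelial sums of 2550 and 2947 overlapped with 3016 and 1797, and without miR-126-5p they were 162.5 and 201.2, against 1159 and 578.5. Most of that remainder was miR-126-3p, at 147.5 and 181.6, against 1152 and 568.9. Of 4 endothelial members 1 was separated lower, miR-126-3p (-2.3), and 1 higher, miR-222 (1.28) (26.8% and 22.2% over all members). miR-222 had 41 and 39 reads against 9 and 5, so it passed the rule only through the first set, where it was higher. miR-221-3p (0.85) and miR-126-5p (0.77) were higher without being separated. The stromal sums of 11431 and 13777 overlapped with 16976 and 8946, nearly all of it miR-143-3p. Without miR-143-3p the stromal sums were 570.9 and 667.9, against 2428 and 1659. Of 8 stromal members 4 were separated lower and 0 higher (26.8% and 22.2% over all members). The lower ones were miR-199a-5p (-2.98), miR-199b-5p (-2.31), miR-145-3p (-2.13) and miR-145-5p (-2.01). With library totals their differences shrank to -1.45, -0.78, -0.61 and -0.49, in the same order. The sum of the liver list was higher in the first set, at 595.7 and 482.0, against 38.4 and 98.8, most of it in the first set from miR-192. Without miR-192 the liver sums overlapped, at 92.4 and 61.7, against 31.4 and 91.9. Of 4 liver members 1 was separated, miR-192, which was higher (22.2% over all members). miR-885-5p overlapped, at 82.7 and 41.4, against 20.6 and 76.4. miR-122, the defining liver miRNA, measured 2.69 and 14.2, against 2.82 and 4.81, and overlapped. Epithelial and neural lists held at most 18 reads in any library. The part of cell makeup in the set differences was not tested.

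Among the members higher in Diannan Small Ear and Landrace, miR-192, typical of liver, gut and kidney, had the widest gap. It measured 503.2 and 420.2 scaled CPM in Diannan Small Ear and Landrace, against 7.06 and 6.94 in Tibetan and Yorkshire, so every library of the first set was at least 59.5-fold above every library of the second. miR-10b and miR-10a-5p, which lie in different HOX gene clusters, followed. miR-10b measured 468818 and 209335, against 5337 and 5053, and miR-10a-5p 14251 and 12283, against 316.9 and 355.8. The mature forms are near-identical, so reads may be shared between those entries. miR-191, a broadly expressed miRNA, measured 19119 and 16328, against 487.8 and 476.5.

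miR-127, an imprinted miRNA of the DLK1-DIO3 region, measured 1800.0 and 1654 in Diannan Small Ear and Landrace, against 90.4 and 21.4 in Tibetan and Yorkshire. Here the second set was itself 2.06 apart on the log2 scale. miR-22-3p measured 18184 and 19430, against 1077 and 1714. miR-204 measured 271.7 and 127.7, against 9.89 and 21.4, and either set spread by about 1 on the log2 scale (1.09 and -1.08). By the same rule miR-486, miR-181a, let-7a, miR-151-3p and miR-181c completed the 12 with the widest gaps, at set differences of 2.98 to 3.72.

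Among the members lower in Diannan Small Ear and Landrace, miR-374a-5p stood next to miR-1. It measured 33.0 and 34.1 scaled CPM in Diannan Small Ear and Landrace, against 4558 and 3568 in Tibetan and Yorkshire, at least 104.5-fold lower in every cross-set ratio. miR-3613 rested on 13 and 7 reads in the first set, against 621 and 622 in the second. miR-152, of the miR-148 family that targets a DNA methyltransferase, measured 21.9 and 27.8, against 1001 and 605.2. miR-21, raised in many injured and fibrotic tissues, measured 608.3 and 870.3, against 7965 and 10410.0. miR-99a measured 349.7 and 303.8, against 8229 and 5999. In none of these did the sets overlap, and the libraries of a set lay within 2-fold of each other. The remaining 6 of the 12 were miR-20a, miR-339, miR-133a-5p, miR-95, miR-148b-3p and miR-206, at set differences between -3.40 and -6.72. For miR-339 it was -4.00, and for the entry miR-339-5p -2.61.

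**Figure D1:**
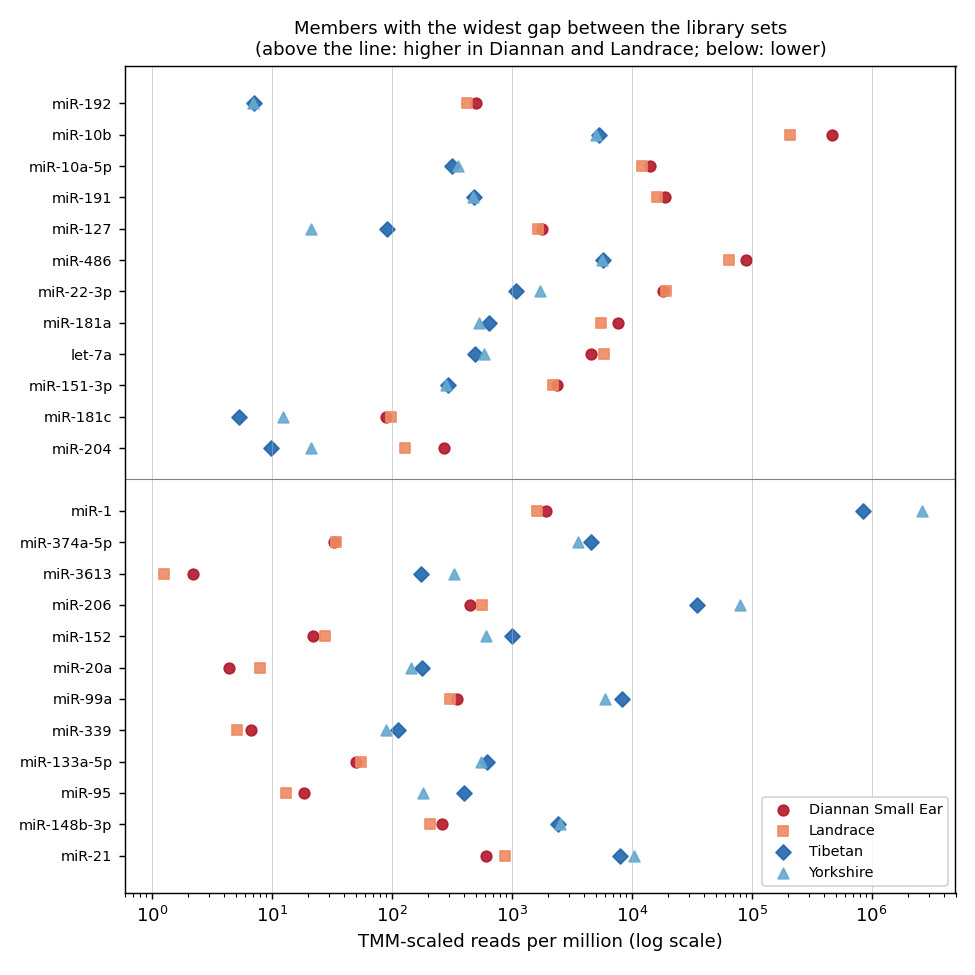
TMM-scaled reads per 1000000 (log axis) in each library for the 12 miRNAs with the widest gap in each direction, among members averaging at least 50 scaled CPM; each point is 1 library. For every miRNA shown the points of one set lie apart from those of the other, though libraries of a set can differ by over 2-fold, as Tibetan and Yorkshire do for miR-127 (2.06 on the log2 scale). miR-1 spans 1943 and 1618 against 846404 and 2645918.

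Both arms passed the rule for 33 precursors. The ratio of 5p to 3p reads is free of library scaling, apart from the added reads, which weigh on low counts. It differed at least 2-fold in all 4 cross-set ratios in 20 of them, with the 5p share higher in Diannan Small Ear and Landrace in 7 (21.2%) and lower in 13 (39.4%), and at least 4-fold in 11. Only miR-145, miR-30b and miR-30c overlapped between the sets. The median size of the arm ratio difference was 1.83 on the log2 scale. Diannan Small Ear and Landrace differed by 0.43 on this measure, and Tibetan and Yorkshire by 0.52. Of the 18 precursors with at least 10 reads from each arm in every library, 12 differed at least 2-fold.

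The majority arm changed sides in 3 precursors. For miR-374a the 5p arm held 34.3% and 27.4% of arm reads in Diannan Small Ear and Landrace (95% Wilson intervals 30.5 to 38.3 and 24.2 to 30.9), against 98.0% and 95.7% in Tibetan and Yorkshire (97.8 to 98.2 and 95.2 to 96.2). For miR-28 it held 15.7% (14.5 to 16.9) and 18.3% (16.7 to 20.1), against 79.9% (77.7 to 81.9) and 84.3% (80.9 to 87.1). For miR-423 it held 55.8% (53.4 to 58.1) and 53.1% (50.5 to 55.7), against 33.3% (28.6 to 38.5) and 36.4% (28.9 to 44.5). The arm ratio of miR-423 just missed 2-fold, at a smallest cross-set gap of 0.98 on the log2 scale. The intervals cover counting error only, and in these 3 precursors no interval of the first set met one of the second. For miR-374a the intervals of Tibetan and Yorkshire did not meet each other either.

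In miR-374a the 5p arm was separated and the 3p arm was not. The 3p arm measured 63.1 and 90.3 scaled CPM in Diannan Small Ear and Landrace, against 91.5 and 160.3 in Tibetan and Yorkshire. In miR-28 the arms parted in opposite directions, with 92.4 and 65.6 against 311.3 and 237.2 for 5p and 496.3 and 292.0 against 78.5 and 44.3 for 3p. miR-424 was the other precursor with both arms separated in opposite directions, but its 3p arm had only 17 and 17 reads in the first set and 1 and 0 in the second, and with those last counts set to 3 reads its smallest ratio is 1.79-fold. With library totals the difference of miR-28-5p shrank to -0.27 and that of miR-28-3p rose to 4.20, so their arm ratio hardly changed.

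Other precursors kept their major arm but changed its share. miR-126, an endothelial miRNA, had 94.2% and 93.8% of arm reads from 5p in Diannan Small Ear and Landrace (93.8 to 94.5 and 93.4 to 94.2), against 61.7% and 68.2% in Tibetan and Yorkshire (60.8 to 62.6 and 66.6 to 69.7). miR-142, a blood cell miRNA, had 95.9% (92.3 to 97.8) and 92.7% (87.4 to 95.9), against 59.8% (53.1 to 66.2) and 66.3% (56.8 to 74.7). miR-151 ran the other way, with 54.4% (53.9 to 55.0) and 53.5% (52.9 to 54.1), against 87.3% (86.6 to 88.0) and 90.8% (90.0 to 91.5). With TMM scaling the 3p arm was separated in these 3 precursors and the 5p arm was not. miR-126-5p measured 2388 and 2746 scaled CPM against 1857 and 1218, and miR-151-5p 2846 and 2536 against 2030.0 and 2801. With library totals the set differences of 5p and 3p were 2.30 and -0.77 for miR-126, 1.22 and -1.91 for miR-142 and 1.71 and 4.52 for miR-151. How the gap falls between the arms thus depends on the scaling.

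Minor arms behaved in the same uneven way. miR-133a-5p, the minor strand of miR-133a, measured 50.7 and 55.9 scaled CPM in Diannan Small Ear and Landrace, against 618.1 and 555.0 in Tibetan and Yorkshire, while the major strand overlapped. For miR-22 it was the major 3p strand that was higher in the first set, while miR-22-5p measured 23.9 and 26.0, against 31.4 and 29.4. For miR-140, best known from cartilage, 5p had 6 and 5 reads, against 90 and 45, and 3p measured 82.7 and 78.6 scaled CPM, against 160.4 and 119.7. miR-148b-5p measured 4.21 and 5.45, against 3.39 and 1.60, while the major miR-148b-3p measured 261.6 and 208.7, against 2421 and 2515.

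Over all 33 precursors the arms lay on the same side in 21 and on opposite sides in 12, or 17 on the same side with library totals. The same side was thus shared by 63.6% of arm pairs, against 9751 of all 19503 pairs of members. The opposite ones were miR-424, miR-28, miR-22, miR-133a, miR-2320, miR-345, miR-30e, miR-361, miR-532, miR-148a, miR-148b and miR-126. At the other end, miR-145-5p and miR-145-3p had set differences of -2.01 and -2.13, and miR-30c-5p and its 3p arm -0.24 and -0.21.

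**Figure D2:**
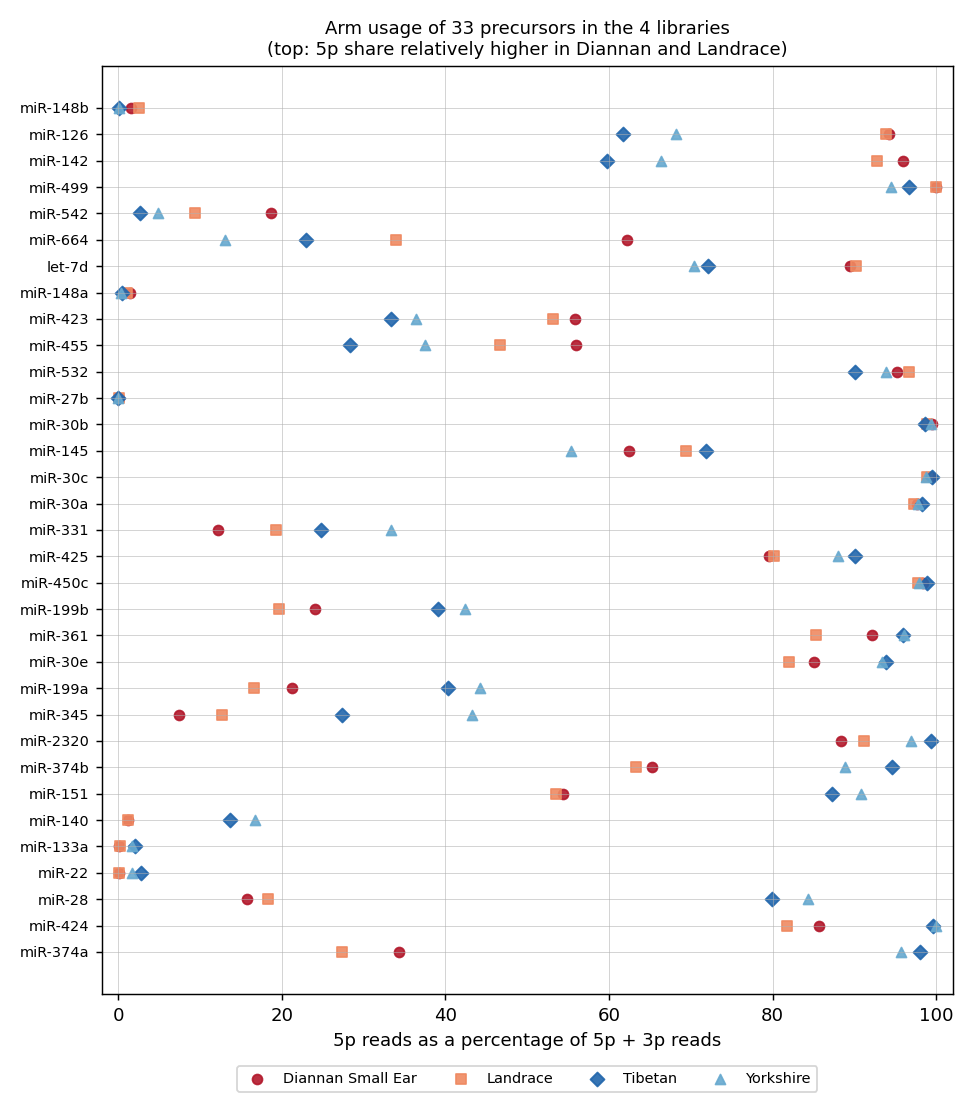
Reads from the 5p arm as a percentage of 5p plus 3p reads for the 33 precursors with both arms among the members, 1 point per library, ordered by the set difference of the arm ratio. miR-374a, with 34.3% and 27.4% against 98.0% and 95.7%, and miR-28 stand at the foot, and miR-148b, miR-126 and miR-142 at the head.

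Of 32 conserved genomic clusters with at least 2 members, 17 had all members on 1 side and 15 were mixed. Taken as pairs, 63.9% of 97 pairs of cluster neighbours shared a side, against 9751 of all 19503 pairs of members. In 6 clusters members were separated in both directions. With clusters drawn instead from miRNA genes within 10 kb of each other in RefSeq, 19 of 31 lay on 1 side. Several miRNAs here, such as let-7a, miR-24, miR-125b and miR-133a, come from more than 1 locus, and their reads cannot be assigned to a single cluster.

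The clusters that held together included let-7a, let-7f and let-7d-5p, at set differences of 2.42 to 3.28 and all separated higher (22.2% over all members). let-7f, the most abundant of the 3, measured 6092 and 6907 scaled CPM in Diannan Small Ear and Landrace, against 1156 and 1257 in Tibetan and Yorkshire. miR-181a with miR-181b (3.47 and 2.50) and miR-181c with miR-181d-5p (3.46 and 2.20) were likewise separated higher. In the cluster of miR-23a, miR-27a and miR-24-3p, whose miR-23a represses atrophy ligases in mouse muscle, all 3 were separated lower (26.8% over all members). miR-23a measured 70.0 and 94.3, against 482.5 and 421.5, and miR-27a 172.4 and 206.5, against 578.8 and 564.6. With library totals the 3 differences stayed below 0, at -0.93 for miR-23a, -0.06 for miR-27a and -0.57 for miR-24-3p.

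All 6 members of the cluster of miR-424, miR-503, miR-542 and the miR-450 group were lower in the first set, and 5 were separated. miR-450a measured 6.40 and 9.99, against 109.9 and 93.5, and miR-450b-5p, the exception, 103.7 and 145.5, against 307.6 and 235.0. With library totals miR-450b-5p turned to 0.40. Among the separated ones, miR-503 had 5 and 5 reads against 57 and 18. It thus passed the rule only through the second set, where it was higher. The miR-17-92 cluster, which promotes proliferation, had 5 of 5 members lower and 4 separated, from miR-20a at -4.66 to miR-92a at -0.17. miR-20a measured 4.38 and 7.99, against 178.2 and 145.8. miR-92a overlapped, at 923.3 and 814.7, against 1102 and 864.3, and turned to 1.36 with library totals.

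Other neighbours parted widely. miR-191 and miR-425-5p, close neighbours in the genome, were separated in opposite directions. The values were 19119 and 16328 against 487.8 and 476.5 for miR-191, and 46.0 and 43.2 against 139.3 and 184.8 for miR-425-5p. miR-99a was separated lower and its neighbour let-7c higher, at 190.8 and 237.2 in Diannan Small Ear and Landrace, against 39.0 and 35.8 in Tibetan and Yorkshire. miR-192 was far higher while its neighbour miR-194a measured 5.72 and 3.45, against 7.34 and 8.01.

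In the cluster of miR-532, miR-362 and miR-500 miR-362 measured 8.59 and 6.36, against 197.5 and 68.9, and miR-500 measured 131.3 and 129.5, against 33.6 and 10.7. miR-532-5p overlapped. miR-374b-5p was separated lower (-3.88) and its neighbour miR-421-3p higher (1.85), the last from 42 and 29 reads against 6 and 2. miR-421-3p thus passed the rule only through the first set, where it was higher. The other clusters with members separated both ways were that of miR-100, let-7a and miR-125b, with miR-100 at -1.45 and let-7a at 3.28, and that of miR-23b, miR-27b and miR-24, with miR-24-3p at -2.11 and miR-27b-3p at 1.50. With library totals miR-100 was at 0.08. miR-1 with miR-133a-3p had the widest range, 9.93 on the log2 scale. Of 8 members of the DLK1-DIO3 region 4 were higher and 4 lower, from miR-369 at -1.90 to miR-127 at 5.28, and miR-127 alone was separated.

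**Figure D3:**
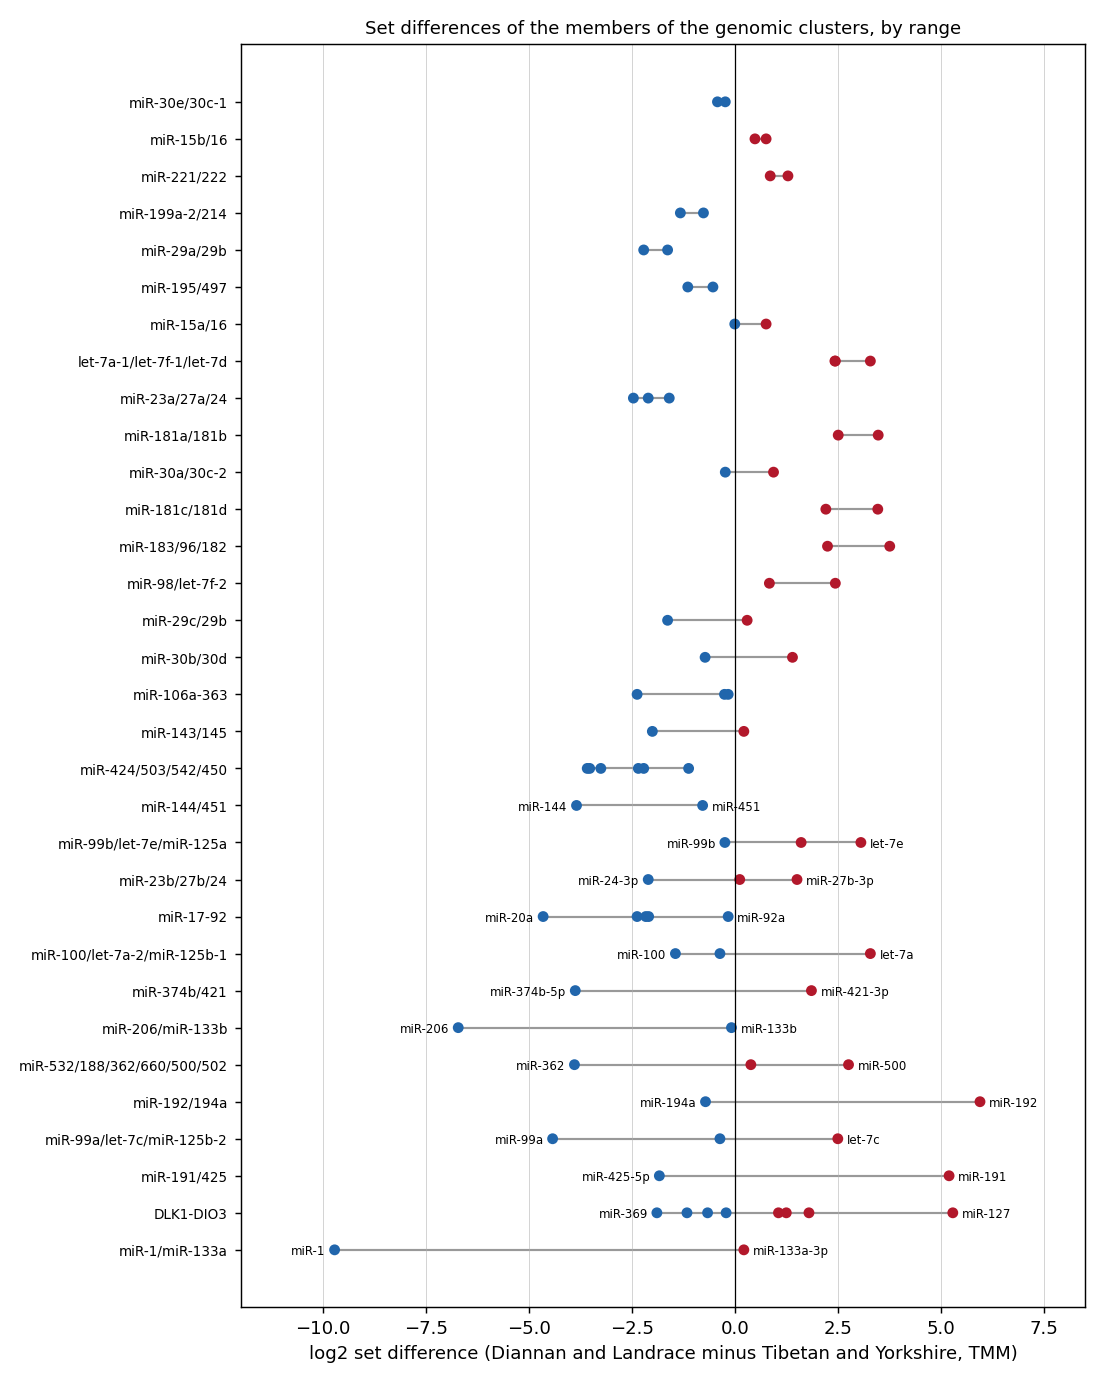
Log2 set difference (Diannan Small Ear and Landrace minus Tibetan and Yorkshire, TMM scaling) of each member of 32 genomic clusters, 1 point per member, with clusters ordered by range. Red points lie above 0 and blue points below, and the range reaches 9.93 in the cluster of miR-1 and miR-133a, whose extreme members are named as in the other clusters with a range above 3.

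Of 26 seed families, 15 had all members on 1 side, 11 were mixed and 2 had members separated in both directions. Of 92 pairs within a family 65.2% shared a side, set beside the same 9751 of 19503. All 4 members of the miR-181 family were separated higher (2.20 to 3.47), set beside 44 of all 198 members. In the let-7 family, known for promoting differentiation, 7 of 8 were higher and 5 separated, set beside 92 and 44 of all 198 members. let-7e measured 163.8 and 239.5 scaled CPM in Diannan Small Ear and Landrace, against 28.5 and 19.2 in Tibetan and Yorkshire. let-7g, the exception, measured 1862 and 2055, against 2006 and 2106, and its set difference of -0.07 turned to 1.46 with library totals. The let-7 sequences differ by few bases, so their separate values are uncertain.

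The families of miR-10 (5.30 and 5.91) and of miR-192 and miR-215 (5.94 and 2.77) were separated higher as a whole. Those of miR-1 and miR-206, of miR-374a-5p and miR-374b-5p (-6.89 and -3.88) and of miR-17-5p and miR-20a (-2.17 and -4.66) were separated lower. miR-215 had 47 and 38 reads against 3 and 1, so it passed the rule only through the first set, where it was higher. The family of miR-148a, miR-148b and miR-152 was lower throughout but unevenly, at -4.95 for miR-152, -3.40 for miR-148b-3p and -0.48 for miR-148a-3p. The last measured 1692 and 1451, against 2077 and 2303, and turned to 1.05 with library totals. miR-99a, miR-100 and miR-99b, at -4.43, -1.45 and -0.25, were spread as widely, and the last 2 turned above 0 with library totals (0.08 and 1.28).

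Both families with members separated in opposite directions held pairs of paralogues. miR-27a was lower (-1.60) and miR-27b-3p higher, at 7328 and 8523 scaled CPM in Diannan Small Ear and Landrace, against 2752 and 2854 in Tibetan and Yorkshire. In the miR-92 family miR-92b-3p was higher (3.25), from 53 and 175 reads against 4 and 3, and miR-32 lower (-2.97), from 8 and 9 reads against 49 and 30. Each of them thus passed the rule only through the set where it was higher, miR-92b-3p through the first and miR-32 through the second. The rule itself favours such calls, so the opposite directions in this family rest on members admitted in that way. The miR-30 family stayed closer to 0, with its 5p arms between -0.73 for miR-30b-5p and 1.39 for miR-30d, and miR-30d alone separated. The family of miR-15, miR-16 and miR-195 ranged from -2.22 for miR-424-5p to 0.75 for miR-16.

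**Figure D4:**
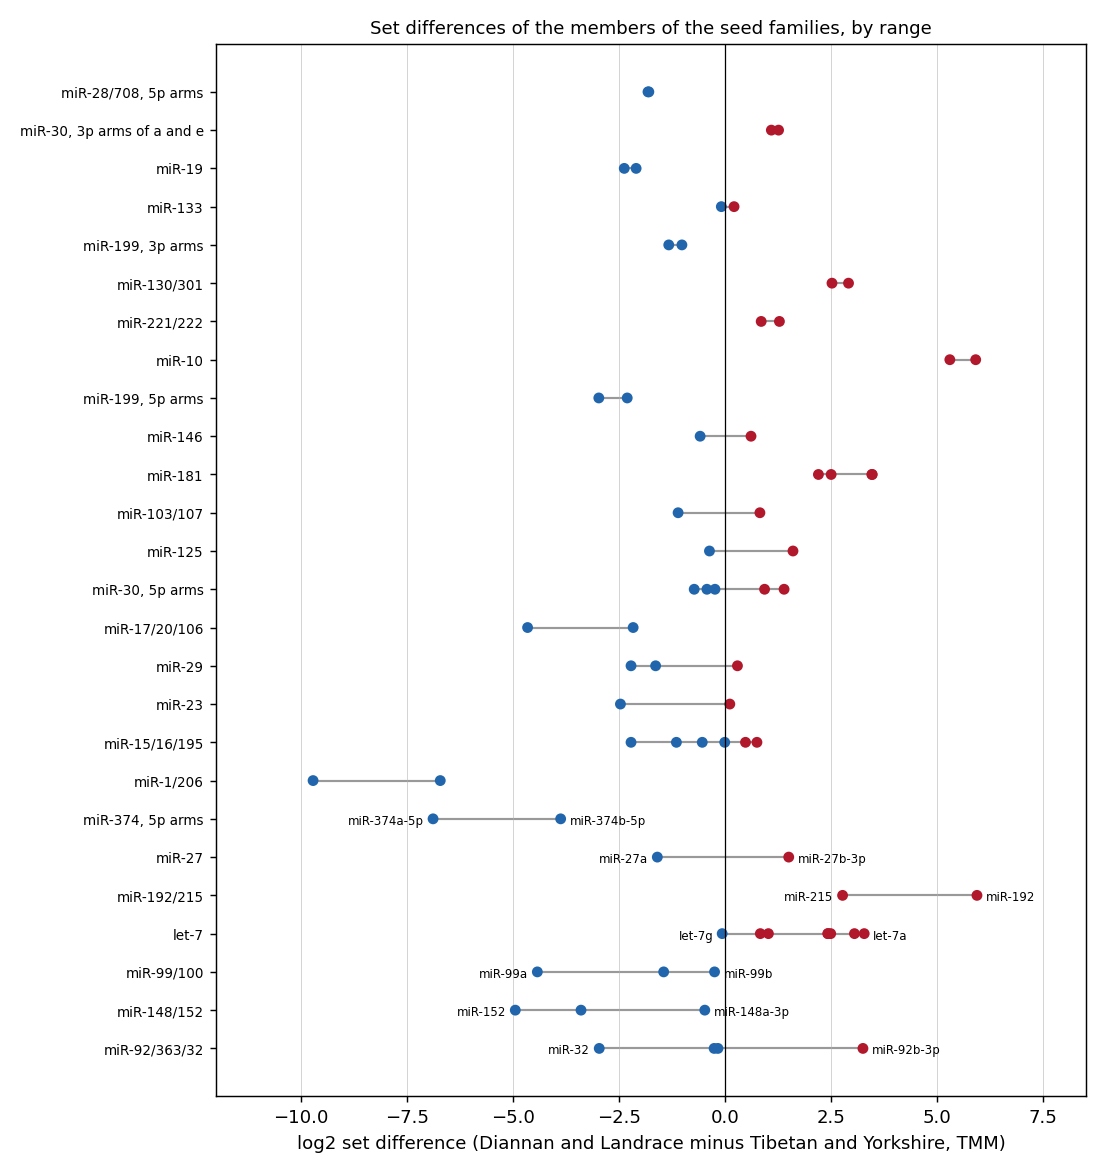
Log2 set difference (Diannan Small Ear and Landrace minus Tibetan and Yorkshire, TMM scaling) of each member of 26 seed families, 1 point per member, with families ordered by range. All 4 miR-181 points lie between 2.20 and 3.47, while the miR-92 family runs from -2.97 to 3.25.

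Pairs of related miRNAs were set side by side by the size of the difference between their set differences. Scaling alters this size only through the added reads, which weigh on low counts. For the 18 pairs that shared both a cluster and a seed the median was 0.80, and 66.7% lay within 2-fold of each other. For 74 pairs of 1 seed family outside a shared cluster it was 1.57. For the 33 pairs of arms it was 1.83, and 21.2% lay within 2-fold. For the 79 pairs of cluster neighbours with different seeds it was 2.13, with 22.8% within 2-fold, close to the 2.21 and 23.7% of all 19503 pairs of members.

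Within a set the same neighbours stood near each other. For cluster neighbours with different seeds the median size of the pair difference was 0.35 for Diannan Small Ear with Landrace and 0.33 for Tibetan with Yorkshire, against 0.48 and 0.78 for all pairs. Among members with at least 10 reads in every library the between-set median of such neighbours was 2.22, as for all pairs, and that of same-seed neighbours 0.85. With neighbours taken from RefSeq it was 2.22 with different seeds and 0.76 with the same seed. Pairs share members and near-identical sequences can share reads, so these medians are descriptions of these libraries.

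**Figure D5:**
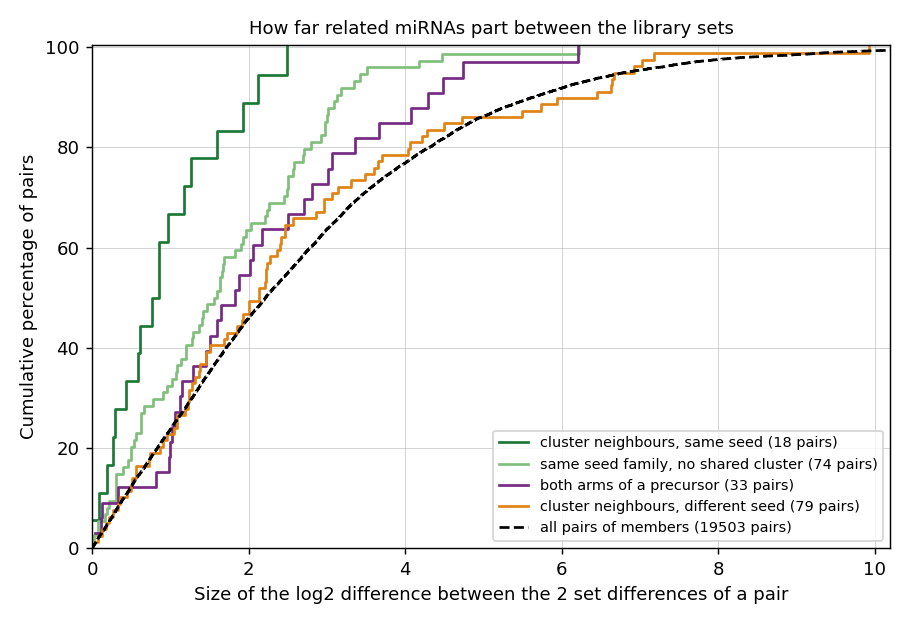
Cumulative percentage of pairs (y axis) by the size of the log2 difference between the set differences of both partners (x axis), 1 line per kind of pair and a dashed line for all 19503 pairs of members. Cluster neighbours with the same seed (median 0.80) lie to the left, and cluster neighbours with different seeds (median 2.13) run near the dashed line (median 2.21).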

How the data were processed

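RNA was extracted with Trizol and small RNA libraries were made with a Balancer kit, per the labels' protocols. Sequencing was on a HiSeq, per the labels. The deposited table gives whole-number read counts per miRNA and library, per the file headers. The authors also deposited CPM values (counts per 1000000 of the library), a mean signal per pig type, a fold ratio of those means and p-values, per the file headers, and none of these entered the values here. Not given in the sources used here are the aligner, the miRNA database and the build. Mature sequences were not used, so seed families and clusters come from lists of names, with miR-194a taken as the pig neighbour of miR-192, and base composition was not analysed. Names of 148 of 163 miRNA loci matched a RefSeq table (Sscrofa11.1), used for neighbourhood only.

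The counts were scaled with TMM in edgeR 4.0.16 (R 4.3.3) over the members, and further values were computed in Python 3.11.15 with pandas 2.3.3 and numpy 2.4.6. Logs used 2 added reads scaled to the library. A count of 0 allows up to 3 reads, or 0.505 to 1.60 scaled CPM. Arm shares carry 95% Wilson intervals. Intervals cover counting error only, since reads from PCR are not separate molecules. The sets, members and lists were chosen with earlier results of these data known. Named miRNAs were the 12 per direction with the widest smallest cross-set gap among members averaging at least 50 scaled CPM, the 10 most abundant, precursors whose arm ratio differed over 4-fold or whose arms had opposite signs, the extremes of clusters and families, those nearest the threshold, and those in opposite directions in either breed type. miR-122, miR-144, miR-145, miR-208b, miR-423, miR-451, miR-499 and further cluster and family members were named to complete marker lists, clusters and families, after their values were seen. With 1 library per breed and sets taken from the data, no test was made. Alternatives were RLE (DESeq2 1.42.0), upper-quartile and total-count scaling, totals without the 5 most abundant miRNAs, added counts of 0.5 and 5, other read minimums and folds, and each library left out. The calculation was tested on simulated data.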

Additional observations from a re-analysis of the deposited data

Results flagged for a closer look

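Among the members, 3 entries differed at least 2-fold in opposite directions in the indigenous and the introduced breeds. miR-196b-5p was higher in Diannan Small Ear than in Tibetan by 1.36 on the log2 scale, from 125 reads against 28, and Landrace minus Yorkshire was -5.48, from 3 reads against 84. miR-196b had values of 1.22, from 125 reads against 31, and -5.51, from 3 reads against 86. Those entries may count the same reads and are not independent. miR-196a, from the HOX clusters as well, had 2.33 for Diannan Small Ear minus Tibetan, from 197 reads against 22, and -1.78 for Landrace minus Yorkshire, from 23 reads against 29. The difference between the breed types was not tested, since each breed had 1 library.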

How the results depend on the processing

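The median set difference of all members, -0.21, was -0.03 with RLE, 0.23 with upper-quartile and 1.23 with total-count scaling, and -0.37 over members with 10 reads in all 4 libraries. With 1 library left out, its lowest value was -0.24 (without Diannan Small Ear) and its highest -0.10 (without Yorkshire). Total counts left 13 members separated lower, against 53, and the cause was not tested. By construction, a 4-fold limit gave 25 higher and 31 lower and plain non-overlap 71 and 82. With 10 reads in all 4 libraries, 28 were higher and 42 lower, 12 of 18 precursors had both arms on 1 side and 12 of 18 had arm ratios 2-fold apart. Arms lay on 1 side in 9 of 15 precursors with 50 reads and in 33 of 54 with every listed miRNA. Among the named members called separated, the sign turned in 1: miR-100 was at 0.08 with total counts, against -1.45. Of 982 recomputed values of single miRNAs and arm ratios, 812 moved by less than the spread within the sets and 169 by more. Of 88 values under each scaling, 82 moved by more with total counts, 51 with upper-quartile scaling and 18 with RLE. With totals without the 5 most abundant miRNAs it was 1 of 88. Leaving out 1 library cannot move such a value by more than this spread, by construction. The 812 include all 105 values from each library left out and so say little. Leaving out 1 library gave 48 to 56 members higher and 57 to 67 lower, since fewer ratios then have to pass. No paired analysis was possible because no result comes from a test; the replicate number 1 of every library is only a name. Depth limits the rarer miRNAs, since 153 members had at least 10 reads in Yorkshire, against 186 in Diannan Small Ear.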
